A study of Mus musculus with 6 samples.

Results

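Collagen chain genes were taken as the autosomal protein-coding genes of the mouse genome build GRCm38 whose symbol is Col, a type number, the letter a and a chain number. The rule found 42 of 20661 autosomal protein-coding genes and left out 2 X-linked ones, Col4a5 and Col4a6. Of the 42 genes, 6 encode collagens of basement membranes (Col4a1, Col4a2, Col4a3, Col4a4, Col15a1 and Col18a1), 11 encode fibrillar collagens of types I, II, III, V, XI, XXIV and XXVII, and 25 encode other types. A peak was assigned to a gene when it overlapped the gene record, extended by 2.5 kb on either side, by at least 1 bp.

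Histone H3 crotonylated at lysine 9 (H3K9cr) and histone H3 acetylated at lysine 9 (H3K9ac) were mapped by native ChIP-seq, in which chromatin is precipitated without fixation. The cells were P19, an embryonal carcinoma line of the mouse, grown in proliferation medium with serum and with no other treatment named in the labels. Each mark was represented by 2 biological replicates and by a single antibody, and the peak lists held 28360 and 28345 peaks for H3K9cr and 26096 and 27474 peaks for H3K9ac. The 2 input libraries were not analysed here, read depth is not given in the sources used here, and a gene without a peak is one below the authors' threshold, which does not show that the mark was absent.

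Collagens are secreted proteins whose chains wind around one another as trimers. Type IV collagen forms the network of basement membranes, the sheets under epithelia that also surround the early embryo, while the fibrillar types build the fibres of skin, bone, tendon and cartilage. The genes of type IV collagen lie head to head in pairs that share a bidirectional promoter. Acetylation and crotonylation of lysine 9 are both found at the start sites of active genes and are added by overlapping sets of acyltransferases.

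The promoters of 6 collagen genes are printed to show the sequence under peaks of different height and under no peak. Each runs 5′ to 3′ on the gene's own strand over 300 bases, of which 250 lie before and 50 after the start site. They are taken from RefSeq on build GRCm38.p6, and capitals mark CpG dinucleotides. Col4a1 (minus strand, chr8:11312777-11313076) and Col4a2 (plus strand, chr8:11312555-11312854) encode the chains of the common type IV trimer, have overlapping promoters and lay under a single peak in every library.
Col4a1: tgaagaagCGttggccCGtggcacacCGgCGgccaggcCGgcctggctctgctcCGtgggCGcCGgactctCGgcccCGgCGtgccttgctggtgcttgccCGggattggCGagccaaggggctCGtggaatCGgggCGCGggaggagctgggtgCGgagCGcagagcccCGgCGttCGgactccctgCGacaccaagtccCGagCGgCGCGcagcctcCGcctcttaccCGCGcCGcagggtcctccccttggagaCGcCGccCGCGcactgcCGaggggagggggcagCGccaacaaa
Col4a2: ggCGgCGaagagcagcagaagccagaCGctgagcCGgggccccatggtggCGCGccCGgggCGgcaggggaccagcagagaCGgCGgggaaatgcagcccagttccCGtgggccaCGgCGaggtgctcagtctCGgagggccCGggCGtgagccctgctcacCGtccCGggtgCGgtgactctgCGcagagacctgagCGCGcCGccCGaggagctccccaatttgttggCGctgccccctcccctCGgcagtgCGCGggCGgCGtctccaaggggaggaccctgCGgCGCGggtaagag
Col4a4 (minus strand, chr1:82586800-82587099) encodes a type IV chain of the kidney glomerulus and lay under a weak peak, and Col5a1 (plus strand, chr2:27886175-27886474), for a fibril-regulating chain of type V, lay under a stronger one.
Col4a4: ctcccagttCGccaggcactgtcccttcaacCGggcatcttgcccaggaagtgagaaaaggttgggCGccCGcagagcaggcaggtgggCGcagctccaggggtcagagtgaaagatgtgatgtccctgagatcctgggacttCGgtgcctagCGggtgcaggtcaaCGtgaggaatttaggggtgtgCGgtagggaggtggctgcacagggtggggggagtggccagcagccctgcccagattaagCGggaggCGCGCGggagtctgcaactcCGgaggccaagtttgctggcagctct
Col5a1: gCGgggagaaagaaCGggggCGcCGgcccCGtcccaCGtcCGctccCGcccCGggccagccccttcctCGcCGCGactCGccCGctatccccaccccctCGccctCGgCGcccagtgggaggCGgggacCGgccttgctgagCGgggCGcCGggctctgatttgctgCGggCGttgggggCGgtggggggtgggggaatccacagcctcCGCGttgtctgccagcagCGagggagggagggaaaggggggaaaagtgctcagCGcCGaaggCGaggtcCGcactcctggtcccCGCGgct
Col3a1 (plus strand, chr1:45311288-45311587), for the type III chain of skin and vessels, and Col10a1 (plus strand, chr10:34389731-34390030), for the type X chain of hypertrophic cartilage, had no peak in any library.
Col3a1: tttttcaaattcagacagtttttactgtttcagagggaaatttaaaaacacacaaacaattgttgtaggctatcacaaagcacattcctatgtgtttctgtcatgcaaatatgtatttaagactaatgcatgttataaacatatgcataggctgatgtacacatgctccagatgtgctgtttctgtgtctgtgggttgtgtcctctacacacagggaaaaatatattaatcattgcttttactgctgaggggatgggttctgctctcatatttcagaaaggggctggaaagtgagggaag
Col10a1: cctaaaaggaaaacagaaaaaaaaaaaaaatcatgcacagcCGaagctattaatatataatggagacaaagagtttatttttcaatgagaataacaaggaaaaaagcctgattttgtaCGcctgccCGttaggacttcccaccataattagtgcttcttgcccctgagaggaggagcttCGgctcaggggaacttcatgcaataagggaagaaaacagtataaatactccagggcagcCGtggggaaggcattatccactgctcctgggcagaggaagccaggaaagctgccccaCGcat

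These promoters held 37 CpG dinucleotides at Col4a1, 33 at Col4a2, 14 at Col4a4, 34 at Col5a1, 0 at Col3a1 and 6 at Col10a1. A start site was listed for 33 of the 42 genes, with 36 promoters. The 21 promoters with a peak within 1 kb of the start in every library held a median of 16 CpG dinucleotides (range 6 to 37), the 4 with a peak in some libraries 13 (8 to 20), and the 11 with none in any library 3 (0 to 6). The marked and unmarked collagen promoters overlapped only at 6 CpG dinucleotides, where Col24a1 and a start of Col6a2 were marked in every library and Col10a1 and a start of Col18a1 in none. The ratio of CpG observed to that expected from the C and G content overlapped more, at 0.25 to 0.90 in marked and 0 to 0.41 in unmarked ones. In promoters of all genes, the counts ran between 0 and 67 in marked and between 0 and 47 in unmarked ones. Over all 20084 autosomal promoters listed, the medians were 22, 7 and 3 in the same classes, so the marked collagen promoters lay below the marked promoters of all genes and the unmarked ones at the same level. Col18a1, which encodes the precursor of endostatin, held this contrast within 1 gene, as the start at 77166530 had 16 CpG dinucleotides and a peak in every library while the start at 77113705 had 6 and a peak in none.

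**Figure D1:**
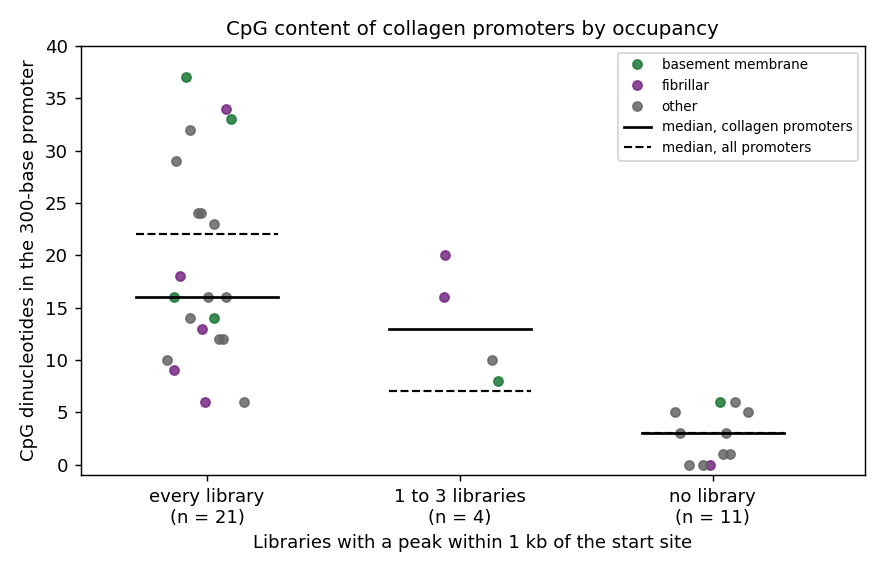
Points are the 36 listed promoters of collagen genes, with the number of CpG dinucleotides in 300 bases on the vertical axis, by the number of libraries with a peak within 1 kb. Solid lines are the medians of the collagen promoters (16, 13 and 3) and dashed lines those of all autosomal promoters (22, 7 and 3).

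Short motifs were searched on both strands as exact letters. GGGCGG, the core of the GC box, was present in 81.0% of the 21 collagen promoters marked in every library and in 9.09% of the 11 unmarked ones, against 67.8% and 9.69% of the marked and unmarked promoters of all genes. TATAAA, the core of the TATA box, was present in 4.76% of the marked and 27.3% of the unmarked collagen promoters, against 6.19% and 24.7% over all genes. CCAAT was present in 38.1% and 27.3% of the marked and unmarked collagen promoters, against 37.3% and 39.8% over all genes. Col4a1 and Col4a2 held both CCAAT and GGGCGG, Col5a1 held GGGCGG, Col3a1 and Col10a1 held TATAAA, and Col4a4 held none of these. A match is a description of the letters and not of a bound site.

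Of the 42 collagen genes, 29 (69.0%) had a peak in every library, against 69.5% of all autosomal protein-coding genes, a share near the background. Peaks were found in no library at 6 collagen genes, against 27.8% of all genes, and in some but not all libraries at 7, against 2.65%. Collagen genes are long, with a median record of 110432 bp against 17491 bp for all genes. Among genes of at least 50 kb, 21 of 27 collagen genes had a peak in every library, against 88.1% of all genes of that length, and among shorter genes 8 of 15 did, against 64% of all. A peak within 1 kb of a start site was present in every library at 26 collagen genes (61.9%), against 64.1% of all genes. By class, 5 of 6 basement membrane, 8 of 11 fibrillar and 16 of 25 other collagen genes had a peak in every library, and at the start site the counts were 5, 8 and 13. The classes differ in length. Among genes of at least 50 kb, the counts with a peak in every library were 5 of 6 basement membrane, 5 of 5 fibrillar and 11 of 16 other genes. No collagen gene had H3K9cr in both replicates and H3K9ac in neither, against 0.218% of all genes, or the reverse, against 0.0339%.

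The strongest peaks at collagen genes ranked near the middle of their lists. Fold enrichment, the authors' ratio of the signal to its local background at a peak's summit, was turned into a percentile within each list. The strongest peak at the 29 collagen genes with a peak in every library lay at a median percentile of 53.6 and 49.2 in the H3K9cr lists and 49.6 and 45.2 in the H3K9ac lists. Over all genes with a peak, the medians were 77.7 and 77.8 for H3K9cr and 75.6 and 77.2 for H3K9ac. The covered length per gene was closer to that of all genes, at medians of 2324 and 2315 bp with H3K9cr and 2103 and 2371 bp for H3K9ac, against 2396 and 2439 bp with H3K9cr and 2211 and 2351 bp for H3K9ac over all genes.

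**Figure D2:**
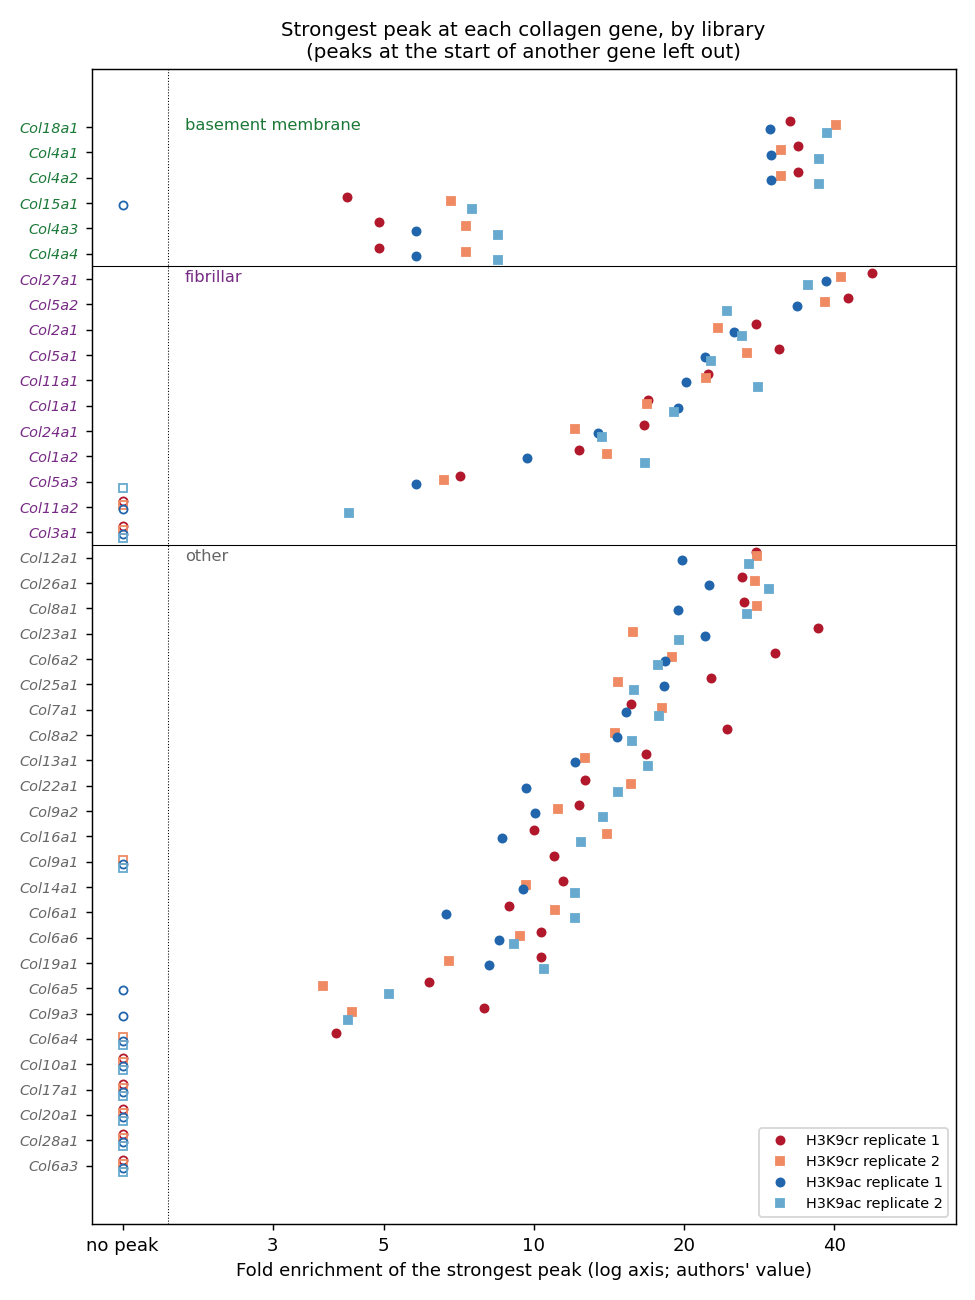
Each row is a collagen gene and each point a library, with the authors' fold enrichment of the strongest peak on a log axis. Peaks at starts of non-collagen genes are left out, and open points mark libraries where no peak was listed. Col27a1 is highest in both H3K9cr libraries and in H3K9ac replicate 1 (47.6, 41.2 and 38.5), Col18a1 in H3K9ac replicate 2 (38.7), and 6 genes have open points only.

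Among basement membrane collagens, the strongest peaks were those of Col4a1, Col4a2 and Col18a1, and Col4a3, Col4a4 and Col15a1 had weak ones. Peaks at the start of a gene other than a collagen gene were then left out. The 5 genes with a peak in every library had median fold enrichments of 32.6 and 31.3 for H3K9cr and 29.7 and 37.3 for H3K9ac. Col4a1 and Col4a2 entered these medians with the same peak, as did Col4a3 and Col4a4. The fibrillar median over 8 genes was 25.1 and 22.8 for H3K9cr and 21.1 and 23.5 for H3K9ac, and that of 16 other collagens was 16.2 and 14.7 for H3K9cr and 13.4 and 15.8 for H3K9ac. Among genes with a peak in every library, the order of the class medians was the same in all 4 libraries. Genes with a peak in only some libraries, Col15a1 among them, were outside these medians. Where all genes with a peak in a library were counted, the basement membrane median lay below the fibrillar one in both H3K9cr libraries. Single genes of the classes overlapped widely, since basement membrane genes ran between 4.90 and 33.8 in H3K9cr replicate 1, fibrillar genes between 12.3 and 47.6 and other genes between 8.94 and 37.2. The class medians were not tested, as genes are not replicates of a class.

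Col4a1 and Col4a2 have start sites 21 bp apart on opposite strands of chromosome 8, at 11312826 and 11312805, and their gene records overlap by 85 bp. A single peak covered both starts and was 2592 and 2683 bp long for H3K9cr and 2612 and 2837 bp long for H3K9ac. It reached a fold enrichment of 33.8 and 31.3 for H3K9cr and of 29.8 and 37.3 for H3K9ac, at percentiles between 62.2 and 63.4 of its lists. The marks overlapped in length and in percentile. The peak extended to both sides by similar lengths, with 1230 and 1348 bp on the Col4a1 side and 1361 and 1334 bp on the Col4a2 side for H3K9cr, and 1255 and 1467 bp on the Col4a1 side and 1356 and 1369 bp on the Col4a2 side for H3K9ac. The summit lay on the Col4a2 side in H3K9cr replicate 1 and H3K9ac replicate 2, and on the Col4a1 side in the remaining libraries, so its place did not follow the mark.

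Col4a4 and Col4a3 encode chains that replace the common trimer in the glomerular basement membrane. The start site of Col4a4, at 82586849 on chromosome 1, lies 72 bp from the end of the Col4a3 record, and the records overlap by 114 bp. The strand of Col4a3 is not given in the tables used here, and either end of its record was taken as a possible start. The peak over this boundary was 820 and 693 bp long for H3K9cr and 360 and 886 bp long for H3K9ac. Its fold enrichment was 4.90 and 7.30 for H3K9cr and 5.81 and 8.47 for H3K9ac, at percentiles of 9.98 and 24.6 in the H3K9cr lists and 15.9 and 25.6 in the H3K9ac lists. Both marks were thus in the lower part of every list, and their values overlapped. A much stronger peak near Col4a3, with fold enrichments of 92.7 and 36.8 for H3K9cr and 60.4 and 66.6 for H3K9ac, lay beyond the far end of the record at the start of Mff, a mitochondrial fission factor gene, and was left out of the class medians.

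**Figure D3:**
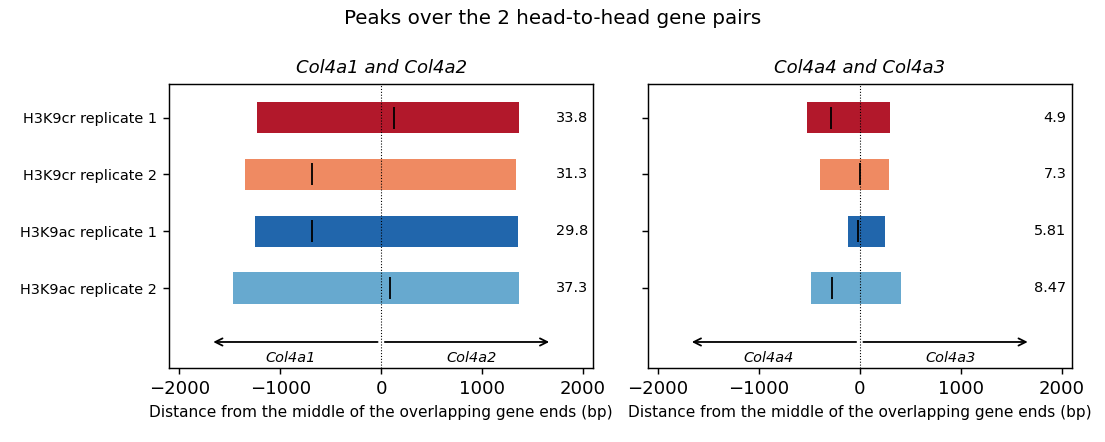
Bars are the peaks of each library over the overlapping ends of 2 gene pairs, in base pairs from the middle of the overlap; ticks mark summits, numbers the authors' fold enrichment, and arrows the side on which each gene record lies. All 4 peaks cross the boundary in both pairs, and those of Col4a1 and Col4a2 (2592 to 2837 bp) are longer than those of Col4a4 and Col4a3 (360 to 886 bp).

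Col18a1 had a peak at its upstream start in every library, 2614 and 2792 bp long for H3K9cr and 2637 and 2565 bp long for H3K9ac. Its fold enrichment was 32.6 and 40.3 for H3K9cr and 29.7 and 38.7 for H3K9ac, close to that of the Col4a1 and Col4a2 peak. Col15a1, for a related collagen that bridges basement membrane and fibrils, had a peak of 253 and 637 bp with H3K9cr and one of 691 bp in H3K9ac replicate 2, with none in H3K9ac replicate 1. The fold enrichments of these peaks were 4.22 and 6.84 for H3K9cr and 7.53 for H3K9ac replicate 2.

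Among fibrillar collagens, Col2a1 had the longest marked stretch and Col27a1 the strongest peaks, while Col3a1 had no peak. Col2a1, the chain of cartilage fibrils, was covered over 9883 and 9183 bp by H3K9cr and over 9083 and 9484 bp by H3K9ac, at the percentile 98.9 of all genes with a peak in every library. Its peaks fell into a region counted as a start, at chr15:97999343-98005951, and one inside the gene, at chr15:97989892-97993787. No start is listed for Col2a1, so either end of its record was taken as a possible start. The marks overlapped in covered length. Col27a1, a fibrillar chain of developing cartilage, reached 47.6 and 41.2 for H3K9cr and 38.5 and 35.5 for H3K9ac in fold enrichment. Col5a2, a partner of Col5a1 in type V trimers, followed with 42.7 and 38.4 for H3K9cr and 33.7 and 24.4 for H3K9ac. Col27a1 was the highest fibrillar gene in all 4 libraries, and Col5a2 came next in all but H3K9ac replicate 2, where Col11a1 and Col2a1 were above it.

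Within fibrillar trimers, the main partner chains of types I and V were all marked in every library, and Col11a2 of type XI was not. Col1a1 and Col1a2, the chains of type I collagen of bone and skin, had peaks at their starts in every library. The peak at the start of Col1a1 reached 16.9 and 16.9 for H3K9cr and 19.5 and 19.1 for H3K9ac in fold enrichment, and that at Col1a2 reached 12.3 and 14.0 for H3K9cr and 9.69 and 16.7 for H3K9ac. In type V, Col5a1 reached 31.0 and 26.8 for H3K9cr and 22.0 and 22.7 for H3K9ac. Its minor partner Col5a3 had a weak start peak of 7.13 and 6.61 for H3K9cr and 5.81 in H3K9ac replicate 1, and none in H3K9ac replicate 2. In type XI, a cartilage collagen, Col11a1 reached 22.3 and 22.2 for H3K9cr and 20.1 and 28.1 for H3K9ac, while Col11a2 had a single peak, of 4.26, in H3K9ac replicate 2. Col24a1, a minor fibrillar chain, reached 16.6 and 12.1 for H3K9cr and 13.5 and 13.7 for H3K9ac.

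Among other collagens, the partner chains of types VI and IX were marked in different numbers of libraries. Type VI collagen forms beaded microfibrils around cells from Col6a1, Col6a2 and a further chain. Col6a2 had a start peak of 30.4 and 18.95 for H3K9cr and of 18.3 and 17.8 for H3K9ac in fold enrichment. Col6a1 had no peak within 1 kb of its start, but one with its summit at -2.31 kb from it that reached 8.94 and 11.02 for H3K9cr and 6.68 and 12.1 for H3K9ac. Col6a3 had no peak. Of the chains that can take the place of Col6a3, Col6a6 had a start peak in every library, at 10.4 and 9.40 for H3K9cr and 8.52 and 9.12 for H3K9ac. Col6a5 had one of 6.16 and 3.78 for H3K9cr and 5.13 in H3K9ac replicate 2 but none in H3K9ac replicate 1, and Col6a4 had a single peak inside the gene, of 4.02, in H3K9cr replicate 1.

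In type IX collagen, which coats cartilage fibrils, Col9a2 had peaks in every library, the strongest at 12.3 and 11.2 for H3K9cr and 10.1 and 13.7 for H3K9ac. Col9a1 had no peak at either of its listed starts and 1 peak inside the gene, of 11.002, in H3K9cr replicate 1. Col9a3 had peaks in 3 libraries, the strongest at 7.94 and 4.32 for H3K9cr and 4.23 in H3K9ac replicate 2, with none in H3K9ac replicate 1. Of the 7 genes with a peak in some libraries, Col15a1, Col6a5 and Col9a3 lacked one only in H3K9ac replicate 1, which has the shortest list, and Col5a3 only in H3K9ac replicate 2. The others, Col6a4, Col9a1 and Col11a2, had a peak in a single library.

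Col12a1, Col26a1 and Col8a1 were among the other collagens with strong peaks, and Col6a2 and the start of Col23a1 were above all of them in H3K9cr replicate 1. Col12a1, a fibril-associated collagen of tendon, reached 27.9 and 28.0 for H3K9cr and 19.8 and 27.1 for H3K9ac. Col26a1, a collagen first known from testis and ovary, reached 26.2 and 27.8 for H3K9cr and 22.5 and 29.6 for H3K9ac. Col8a1, a short-chain collagen of vessels and the cornea, reached 26.4 and 28.0 for H3K9cr and 19.4 and 26.7 for H3K9ac. Its partner Col8a2 reached 24.4 and 14.5 for H3K9cr and 14.7 and 15.7 for H3K9ac, from peaks inside the gene, in a neighbouring region in H3K9ac replicate 2. Col23a1, a transmembrane collagen, ranked highest by its strongest overlapping peak, but that peak, of 99.7 and 132 for H3K9cr and 77.0 and 158 for H3K9ac, lay at the start of the neighbour Phykpl, an enzyme gene. The peak at the start of Col23a1 itself reached 37.2 and 15.8 for H3K9cr and 22.0 and 19.5 for H3K9ac. Lower values at starts marked in every library were those of Col7a1, the collagen of anchoring fibrils in skin, with 15.6 and 18.1 for H3K9cr and 15.3 and 17.8 for H3K9ac, and of the fibril-associated Col14a1 and Col19a1, which lay between 6.78 and 12.1 in all libraries. Col3a1, Col6a3, Col10a1, Col17a1, Col20a1 and Col28a1 had no peak in any library; Col17a1 is a collagen of the hemidesmosomes that anchor skin epithelium.

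Peaks of the 4 libraries were merged into 59 distinct regions at collagen genes, of which 38 (64.4%) held a peak of every library, against 73.6% of all autosomal regions. At the start site lay 31 regions, of which 25 held every library. Inside gene records, away from the starts, lay 20 regions, of which 9 held every library, and in the flanks lay 8, of which 4 did. The regions at the starts that held every library had median fold enrichments of 22.3 and 16.9 for H3K9cr and 18.3 and 17.8 for H3K9ac, against 12.6 and 12.7 for H3K9cr and 11.6 and 13.4 for H3K9ac in regions inside the genes. Col22a1, whose product lies at muscle and tendon junctions, was marked in every library only inside its record, in 2 neighbouring regions whose strongest peaks reached 12.6 and 15.7 for H3K9cr and 9.66 and 14.7 for H3K9ac.

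**Figure D4:**
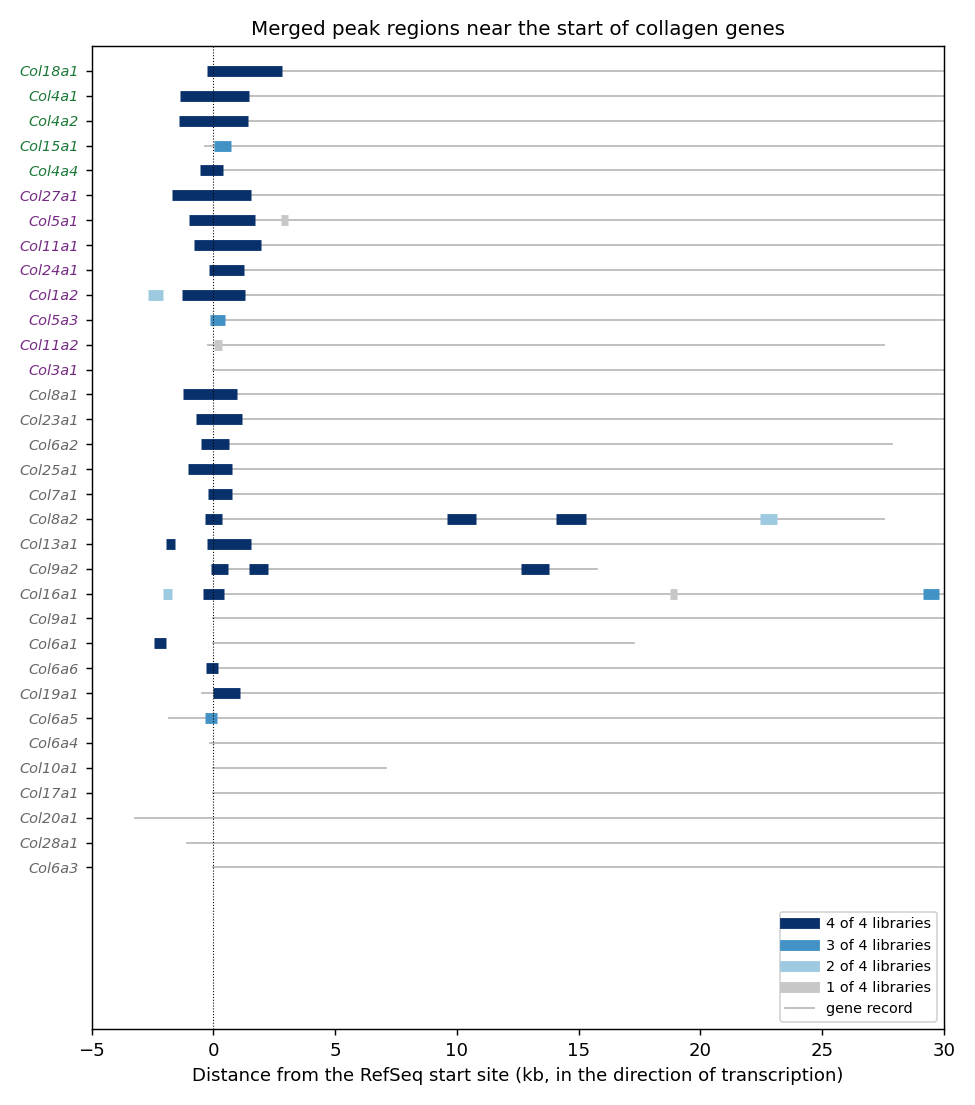
Merged peak regions of the 33 collagen genes with a listed start are drawn between 5 kb upstream and 30 kb downstream of the start site farthest upstream, shaded by the number of libraries with a peak; thin lines are gene records. Most regions sit at the start. Col8a2 and Col9a2 have further regions of every library inside the gene, and Col5a1 and Col16a1 have ones of fewer libraries. Upstream regions also lie at Col1a2, Col13a1 and Col16a1, and Col6a1 has 1 upstream only.

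At 3 regions both H3K9cr libraries and neither H3K9ac library had a peak, against 2.55% of all autosomal regions, and at 0 regions the reverse was seen, against 0.278%. The longest of the 3 lay inside Col8a2, at chr4:126309243-126309955, and its H3K9cr peaks of 709 and 701 bp reached fold enrichments of 9.03 and 5.70. Another lay inside Col9a3, at chr2:180605012-180605315, with 6.28 and 4.32. The last lay outside the Col1a1 record, at chr11:94933429-94933937, with 3.58 and 3.64. It was on the side of the record end that held the peak counted as the Col1a1 start peak. Each of these genes also carried H3K9ac at another region in at least 1 library. A single library held 9 of the 59 regions.

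The marks were compared over collagen genes first by their summed covered length. Peaks covered 68852 and 66426 bp of the collagen windows for H3K9cr and 58778 and 67274 bp for H3K9ac, and the H3K9cr replicate 2 total lay below that of H3K9ac replicate 2. The means were 67639 ± 1715 bp with H3K9cr and 63026 ± 6008 bp for H3K9ac (SD, n = 2 each), a difference of 4613 bp that did not exceed the spread between replicates (exact two-sided permutation test, p = 0.667, where the smallest p this design allows is 0.333). As a share of each list's own covered length, collagen genes held 0.167% and 0.158% for H3K9cr and 0.161% and 0.168% for H3K9ac, which overlapped.

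Gene by gene, no collagen gene passed the test of a difference between the marks in covered length. In limma fitted over all 14368 genes with a peak in every library, on log2 base pairs centred on the library median, 0 of the 29 collagen genes passed a Benjamini-Hochberg adjusted p of 0.05, against 0% of all genes, and 1 collagen gene had an unadjusted p under 0.05, against 5.23% of all genes. With 2 replicates of each mark, a gene that did not pass is not shown to be alike. The difference of H3K9cr minus H3K9ac was above 0 at 14 collagen genes and below 0 at 15, with a median of -0.03 on the log2 scale, against -0.01 over all genes tested. Class medians were -0.05 for basement membrane, -0.04 for fibrillar and 0.02 for other collagens.

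Lengths are given in base pairs as listed, and differences after centring each library on its median, so overlap is stated for each scale. Col8a2 was covered over 3656 and 3706 bp by H3K9cr and over 2909 and 3053 bp by H3K9ac. The marks did not overlap on either scale, and the gene holds an H3K9cr region without H3K9ac, as described. Its log2 difference was 0.22 ± 0.06 (SE, limma adjusted p = 0.777). Col4a4 had the difference farthest from 0, at 0.33 ± 0.43 (SE, adjusted p = 0.912), from the overlapping lengths given for its pair, and without H3K9ac replicate 1 it was -0.27. Col1a1 was covered over 2854 and 2477 bp by H3K9cr and over 1890 and 2408 bp by H3K9ac, without overlap in base pairs but with overlap after centring, and its difference was 0.23 ± 0.13 (SE, adjusted p = 0.893). That difference was 0.12 without H3K9cr replicate 1, 0.35 without H3K9cr replicate 2, 0.10 without H3K9ac replicate 1 and 0.36 without H3K9ac replicate 2.

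Col25a1, a transmembrane collagen of neurons, was covered over 1818 and 1558 bp by H3K9cr and over 1335 and 1487 bp by H3K9ac, without overlap on either scale, with a difference of 0.17 ± 0.11 (SE, adjusted p = 0.893). Col4a1 and Col4a2, which share 1 peak, overlapped in base pairs but not after centring, with a difference of -0.13 ± 0.06 (SE, adjusted p = 0.893). Col6a2 was covered over 1050 and 1090 bp by H3K9cr and over 1089 and 1128 bp by H3K9ac, with a slight overlap in base pairs and none after centring, and differed by -0.14 ± 0.06 (SE, adjusted p = 0.893). Col13a1, a transmembrane collagen of cell junctions, was covered over 2956 and 3013 bp by H3K9cr and over 2846 and 3280 bp by H3K9ac, and Col16a1, a fibril-associated collagen, over 1501 and 1162 bp by H3K9cr and over 1136 and 1565 bp by H3K9ac. Both overlapped in base pairs and Col16a1 alone after centring, with differences of -0.12 ± 0.07 and -0.10 ± 0.20 (SE; adjusted p = 0.893 for Col13a1 and 0.941 for Col16a1).

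**Figure D5:**
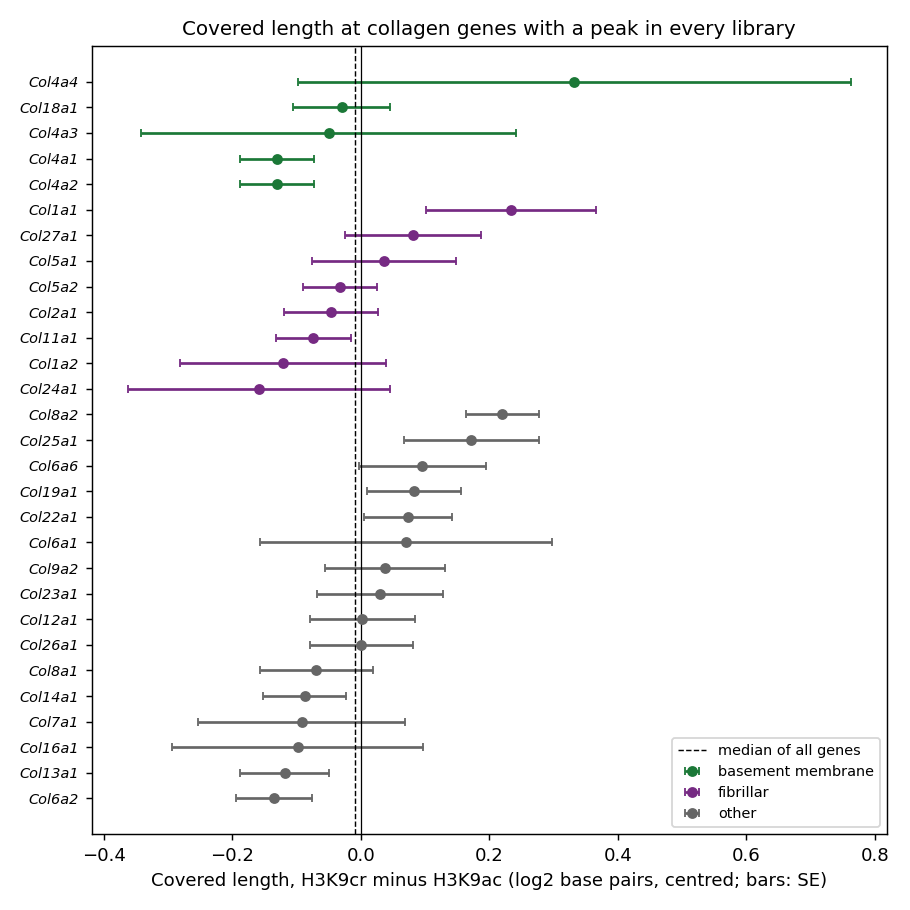
Points are the differences in covered length between H3K9cr and H3K9ac at the 29 collagen genes with a peak in every library, in log2 base pairs, with bars of 1 SE from limma; positive values mean longer coverage by H3K9cr. The values run between -0.16 (Col24a1) and 0.33 (Col4a4), and the dashed line marks the median of all genes, -0.01.

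Peak height was compared by the rank of the summit pileup, the read coverage at the summit of a gene's strongest peak, within its list. As normal scores, 0 of 29 collagen genes passed the adjusted threshold in limma, against 0.0835% of all genes (0.0766% higher and 0.00696% lower with H3K9cr), and 2 had an unadjusted p under 0.05, against 9.32%. The score of H3K9cr minus H3K9ac was above 0 at 24 collagen genes and below 0 at 5, against 10048 above and 4320 below over all genes, with medians of 0.06 for collagen genes and 0.05 for all genes. With equal numbers of peaks in each list, 14 of 29 collagen genes were above 0, and the medians were -0.02 for collagen genes and -0.0045 for all genes. The 2 genes were Col8a2, with a difference of 0.21 ± 0.08 (SE, adjusted p = 0.503), and Col4a3, with 0.21 ± 0.08 (SE, adjusted p = 0.505), whose strongest peak is the one at the start of Mff. Without H3K9ac replicate 2, Col4a4 alone of 30 collagen genes passed, beside 620 of 14394 genes in all, with a difference of 0.43 ± 0.09 (SE, adjusted p = 0.00875), where the lone H3K9ac library was assumed to vary like H3K9cr.

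Genes that serve collagens were examined from lists, and here peaks at the starts of other genes were kept. Of 30 genes for collagen folding and processing, 29 had a peak in every library, against 69.5% of all genes. Within 1 kb of a start site 28 did, against 64.1% of all genes. Loxl2, a lysyl oxidase that crosslinks collagen, had none in any library. The strongest peaks were those of P4hb, a subunit of prolyl hydroxylase, Loxl3, a lysyl oxidase, Plod3, a lysyl hydroxylase, and Colgalt1, a collagen galactosyltransferase. P4hb reached fold enrichments of 152 and 144 for H3K9cr and 105 and 208 for H3K9ac. All were above every collagen gene's own peak in the same library. The highest of those own peaks were 47.6 and 41.2 for H3K9cr and 38.5 and 38.7 for H3K9ac. P4hb was also above the Phykpl peak in the Col23a1 window, at 99.7 and 132 for H3K9cr and 77.0 and 158 for H3K9ac. Loxl3, Plod3 and Colgalt1 were above that peak in replicate 1 of each mark. In H3K9ac replicate 2 they were below it, at 146, 102 and 77.1. In H3K9cr replicate 2 Loxl3 was above it at 136, and Plod3 and Colgalt1 were below it at 111 and 81.4. The median percentiles of the list were 71.5 and 73.1 for H3K9cr and 70.2 and 72.5 for H3K9ac. They lay below those of all genes with a peak in every library, at 77.7 and 77.8 for H3K9cr and 75.6 and 77.2 for H3K9ac.

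Of 16 laminins and other basement membrane genes, 13 (81.3%) had a peak in every library, also within 1 kb of a start site. Over all genes the shares were 69.5% and 64.1%. Most genes of this list are at least 50 kb long, and 88.1% of all genes of that length had a peak in every library. The strongest was at Lamb2, a laminin beta chain, with 113 and 122 for H3K9cr and 87.2 and 145 for H3K9ac, followed by Sparc, which binds type IV collagen, Lamc1 and Lamc3. Lamb3, a laminin chain of skin, had none, Lama2, a laminin chain of muscle, had a peak in 1 library of each mark (6.14 and 9.16), and Nid1, a linker of laminin and type IV collagen, had one in H3K9ac replicate 2 only (6.55). Of 10 collagen receptor genes, 9 had a peak in every library, against 69.5% of all genes and 88.1% of those of at least 50 kb. Within 1 kb of a start site 7 did, against 64.1% of all genes. Itgb1, the shared integrin chain, was highest at 130 and 132 for H3K9cr and 98.6 and 148 for H3K9ac. Next were Itga1, Mrc2 and Ddr1. Gp6, the collagen receptor of platelets, had no peak. In none of these lists did a gene pass the adjusted threshold of limma for covered length or pileup rank.

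The labelled cell type was checked against marker genes. All 8 genes of undifferentiated embryonal carcinoma, Pou5f1 and Sox2 among them, had a peak in every library, against 69.5% of all genes. Alb and Hbb-bt, of liver and red cells, had none. Of 8 endoderm markers, 5 were marked in every library, Afp and Thbd in 1 H3K9cr library each, and Ttr in none. Of 8 fibroblast and mesenchyme markers, 5 were marked in every library, Dcn in both H3K9cr lists only, and Lum and Postn in none. The share marked in every library, 62.5% in either of these lists, lay near the 69.5% of all genes. In the 8 embryonal carcinoma genes, the median fold enrichment percentile ran between 34.7 and 90.4. In the 5 endoderm markers with a peak in every library it ran between 32.0 and 75.8, so the ranges overlapped.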

How the data were processed

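Peaks of the 4 precipitated libraries were used as the authors deposited them, 1 list per library. The submitters' processing notes name Bowtie2 2.4.1, MACS2 2.2.7.1 and build GRCm38, and their settings were not stated there. Positions, lengths and summits of peaks stand, per the file headers, beside pileup (a coverage signal), the −log10 p-value, the −log10 q-value and the fold enrichment (a ratio). The smallest deposited −log10 q-value per list was between 2.02 and 2.06. The steps from reads to peaks can change a peak's width and height with depth, which the lists do not give. Heights were therefore tested between marks only as ranks within a list. Fold enrichments are given as listed, and their listed values were not tested between marks.

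Gene records of GRCm38 and RefSeq promoters (GRCm38.p6) gave positions, counted from 1. For the 9 collagen genes without a listed start, either end of the record was used. Covered length (base pairs, log2, centred) and normal scores of pileup ranks were fitted with limma 3.58.1 in R 4.3.3 over all genes with a peak in every library. The fit of covered length was also run on simulated data, with planted changes larger than any difference at a collagen gene. The fit of pileup ranks was not run on simulated data. Sums were compared by exact permutation. Other steps used Python 3.11.15 with numpy 2.4.6, pandas 2.3.3, scipy 1.17.1 and matplotlib 3.10.9. Groups and replicate numbers came from the labels; the p-values measure the spread between 2 replicates of a mark.

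The members and the lists were chosen with earlier results of these data known. Values in every library are given for basement membrane and fibrillar genes, for the 5 other collagens highest in fold enrichment percentile, the 5 with the largest difference in covered length and those with a peak in some libraries. From the lists, up to 4 genes are named by percentile, with those marked in some or no library. Genes named for their regions, their trimer partners or their promoters were chosen after their values were seen. The alternatives were other windows, a −log10 q-value of at least 5 and equal numbers of peaks. They also included other scales, a replicate block and each library left out. A start taken from the gene record and peaks at starts of non-collagen genes left out were added after seeing the data.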

Additional observations from a re-analysis of the deposited data

How the results depend on the processing

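The number of collagen genes with a peak in every library was 28 to 32 over 10 alternatives, and with one at a start site 26 to 29 over 9; leaving out a library gave 29 to 32 and 26 to 29. The difference in total covered length was 365 bp without H3K9ac replicate 1 to 8861 bp without H3K9ac replicate 2, with exact p between 0.333 and 1. No collagen gene was called for covered length in any of 12 alternatives. For pileup rank, 0 were called in 9 of 10 alternatives; the counts with a library left out were 0 to 1, the 1 being Col4a4 without H3K9ac replicate 2. Over all genes, 28 were called for covered length with a peak in any library required, against 0. For pileup rank, 12 genes were called over all genes, against 98 with the replicate block, 0 with fold enrichment in place of pileup and 76 to 620 with a library left out; the cause was not tested. The replicate block changed no call at a collagen gene. Deviations of samples with the same number correlated at 0.137 for covered length and 0.0215 for pileup rank over 14368 genes. With 2 pairs, these values cannot tell whether samples with the same number share a batch. The difference at Col4a4 changed sign to -3 bp on the scale of base pairs and to -0.27 (log2) without H3K9ac replicate 1; with a library left out it ran between -0.27 and 0.94. At Col1a1 it was 0.10 with a −log10 q-value of at least 5 and 0.52 with a window of 10 kb, against 0.23. Replicates are 2 per mark and read depth is unknown, which limits every comparison of widths and heights.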

Other observations

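The X-linked genes Col4a5 and Col4a6 form the remaining head-to-head pair of type IV collagen. Their gene records lie next to each other on chromosome X, with Col4a6 ending at 141474095 and Col4a5 starting at 141475370. The windows of both genes held the same 2 peaks in every library. The stronger peak reached a fold enrichment of 21.0 and 20.1 for H3K9cr and of 14.7 and 18.3 for H3K9ac. These values lie between those of the Col4a1 and Col4a2 pair and those of the Col4a4 and Col4a3 pair in every library. Peaks covered 1625 and 1717 bp with H3K9cr and 1058 and 1627 bp for H3K9ac, and the marks overlapped.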
